A study of Caenorhabditis elegans with 2 samples.

Results

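The autosomal promoter regions are the regions of chromosomes I to V, in the joint list of a ChIP-seq study of the nuclear hormone receptor NHR-12, that lie at the start of a protein-coding gene. A region was taken when its midpoint lay in a promoter window, from 500 bp upstream to 200 bp downstream of a 5′ end that the annotation gives for any protein-coding gene (Ensembl release 115, WBcel235, the ce11 build). The parts of chromosome IV from 4.5 to 7.0 Mb and from 13.5 to 17.2 Mb, which hold the piRNA gene clusters, were left out. The rule was met by 710 of the 3817 regions of the joint list, and it used position alone and no measured value. The same windows on the X chromosome held 94 regions, and 2086 autosomal regions outside the piRNA clusters lay in no promoter window.

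Chromatin was immunoprecipitated from whole L1 larvae of Caenorhabditis elegans of mixed sex and sequenced, in 2 biological replicates. All larvae were of the strain OP318, with the genotype unc-119(ed3) III; wgIs318, in which a transgene stably expresses NHR-12 with GFP and FLAG at its C-terminus. The promoter that drives the transgene is not given in the sources used here. There was 1 group and no second condition, so regions are compared with regions and no test between conditions was possible. Both replicates came from 1 strain, and whole larvae mix all cell types, so regions cannot be assigned to a tissue.

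Nuclear hormone receptors are transcription factors with a zinc-finger DNA-binding domain and a ligand-binding domain, and many bind DNA near the promoters of the genes they regulate. The C. elegans genome encodes an unusually large family of them, most of which have no known ligand. In this genome many genes lie close together, so that neighbouring genes on opposite strands often share one upstream stretch, called a divergent promoter here. Many C. elegans messages are also trans-spliced near the start codon, so that the annotated 5′ end often lies downstream of the place where transcription starts.

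The sequences below reach 100 bp to either side of the midpoints of some of the strongest autosomal promoter regions, and of one with the lowest signal, so that their make-up can be read beside the values. They are given on the strand of the nearest gene, 5′ to 3′. Capitals mark matches on either strand to 3 patterns picked by reading the strongest windows. The first is CTGCGTC, the second is TACACTT and the last is ACACGCT. The regions of rpl-35, cdc-48.1, cox-5A and the divergent pair rpl-15/K11H12.8 are shown because each holds both TACACTT and ACACGCT. Their windows are chrIII:7854622-7854822 on the plus strand, chrII:10563467-10563667 on the minus strand, chrIII:12905085-12905285 on the plus strand and chrIV:654826-655026 on the minus strand. The divergent pairs drr-2/set-16 (chrIII:13643628-13643828, minus strand) and F44E5.4/F44E5.5 (chrII:11759379-11759579, minus strand) are shown for CTGCGTC. The strongest divergent region, Y55F3AR.2/cct-8 (chrIV:1094258-1094458, plus strand), and the region of lowest signal, R13A5.15 (chrIII:7588179-7588379, minus strand), hold none of the 3 patterns.
rpl-35: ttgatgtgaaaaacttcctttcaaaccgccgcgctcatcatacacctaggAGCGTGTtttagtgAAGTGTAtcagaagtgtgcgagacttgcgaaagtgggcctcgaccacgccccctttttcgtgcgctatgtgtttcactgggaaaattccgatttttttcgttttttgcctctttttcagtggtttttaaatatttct
cdc-48.1: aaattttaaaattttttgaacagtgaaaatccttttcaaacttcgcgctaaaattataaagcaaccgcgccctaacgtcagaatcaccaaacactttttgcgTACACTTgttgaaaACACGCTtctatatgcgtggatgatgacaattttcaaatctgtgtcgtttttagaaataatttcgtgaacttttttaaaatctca
cox-5A: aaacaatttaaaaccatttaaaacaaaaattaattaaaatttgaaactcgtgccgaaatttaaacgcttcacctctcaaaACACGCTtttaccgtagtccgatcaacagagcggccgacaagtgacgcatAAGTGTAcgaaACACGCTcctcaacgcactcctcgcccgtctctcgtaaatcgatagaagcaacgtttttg
rpl-15/K11H12.8: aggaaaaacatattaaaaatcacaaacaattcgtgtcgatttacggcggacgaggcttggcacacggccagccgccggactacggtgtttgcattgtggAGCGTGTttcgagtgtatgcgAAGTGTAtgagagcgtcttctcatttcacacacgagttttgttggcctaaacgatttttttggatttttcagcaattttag
drr-2/set-16: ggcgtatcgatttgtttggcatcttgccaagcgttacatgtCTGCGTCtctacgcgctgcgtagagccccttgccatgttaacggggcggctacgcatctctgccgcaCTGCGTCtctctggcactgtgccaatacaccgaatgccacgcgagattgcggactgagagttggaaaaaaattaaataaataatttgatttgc
F44E5.4/F44E5.5: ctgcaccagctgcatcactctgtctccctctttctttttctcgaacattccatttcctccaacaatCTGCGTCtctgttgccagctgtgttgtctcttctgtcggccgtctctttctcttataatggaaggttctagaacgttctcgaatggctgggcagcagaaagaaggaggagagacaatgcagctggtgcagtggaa
Y55F3AR.2/cct-8: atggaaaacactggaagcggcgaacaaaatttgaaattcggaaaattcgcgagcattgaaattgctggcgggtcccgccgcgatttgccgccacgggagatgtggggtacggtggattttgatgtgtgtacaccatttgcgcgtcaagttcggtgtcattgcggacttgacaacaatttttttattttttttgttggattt
R13A5.15: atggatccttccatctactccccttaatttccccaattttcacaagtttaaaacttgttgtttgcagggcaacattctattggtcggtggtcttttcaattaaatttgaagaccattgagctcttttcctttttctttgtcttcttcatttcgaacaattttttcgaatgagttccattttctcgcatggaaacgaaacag

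The authors' files give each region a signal value, a score from their peak caller with no stated scale, which ranks regions within 1 list. The authors also deposited a set of 164 joint regions that passed a threshold on the irreproducible discovery rate (IDR), a measure of how well the ranks of regions hold between replicates. In these files that set was the joint regions of highest signal, so the IDR share and the signal are 2 views of the same measure. The lowest signal in the IDR set was 37.1. The lists give no read counts, and the depth of sequencing is therefore unknown. The replicate lists differed in length, with 26878 regions in replicate 1 and 30000 in replicate 2.

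The autosomal promoter regions had higher signals than the autosomal regions outside promoter windows, and more of them were in the IDR set. Of the 710 promoter regions, 69 (9.72%, exact 95% interval 7.64 to 12.1%) were IDR regions, against 44 of 2086 (2.11%, 1.54 to 2.82%) outside the windows. Over the whole joint list the IDR share was 4.3%, and over all autosomal regions outside the piRNA clusters it was 4.04%. The median signal was 21 (quartiles 18.5 and 25.7) in the promoter regions and 19.4 (18.1 and 21.7) outside. The quartile ranges of the 2 distributions overlapped, and the difference lay mostly in the upper tail, where the 90th percentile was 36.7 in promoters and 25.2 outside.

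Autosomal and X chromosome promoters could not be separated by these measures. The IDR share was 9.72% in autosomal and 7.45% (7 of 94, 3.05 to 14.7%) in X promoter regions, with intervals that overlap widely. Their median signals were 21 and 20.7. Among the autosomes, IDR regions made up 14.6% of the 164 promoter regions on chromosome I, 7.8% of 141 on II, 14% of 136 on III, 5.38% of 93 on IV and 5.68% of 176 on V. Chromosomes I and III had the highest shares, but the intervals of I (9.61 to 21%) and II (3.96 to 13.5%) overlap.

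Each replicate listed most of the promoter regions. Within 100 bp of the joint midpoint, replicate 1 had a region for 524 (73.8%) and replicate 2 for 573 (80.7%), and 401 (56.5%, 52.7 to 60.2%) had one in both. Over all nuclear regions of the joint list, 50.4% were listed in both replicates. Outside the promoter windows the autosomal share was 50.1%, so listing in both replicates was only somewhat more frequent in promoters. There were 14 promoter regions that neither replicate list held.

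The IDR regions were listed in both replicates more often than the others, which the choice of the set from both replicates in part fixes. Of the 69 IDR regions, 66 (95.7%) were listed in both replicates, against 335 of 641 (52.3%) of the others. The median rank of the IDR regions was 113 in replicate 1 and 102 in replicate 2. Their ranks reached 5520 and 5970, and 28 of the 69 stood within the first 164 of both lists. Across the 401 regions in both lists, Pearson's r of the log2 signals was 0.463 and Spearman's rank correlation was 0.308. Across the 66 IDR regions in both lists these were 0.203 and 0.135, over a range of signals narrowed by that choice. These are descriptions across regions of the same 2 libraries, and regions are not independent replicates. Midpoints in the replicate lists lay a median of 19 bp (replicate 1) and 14 bp (replicate 2) from the joint midpoint. The plot of one replicate's signal against the other's shows the same.

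**Figure D1:**
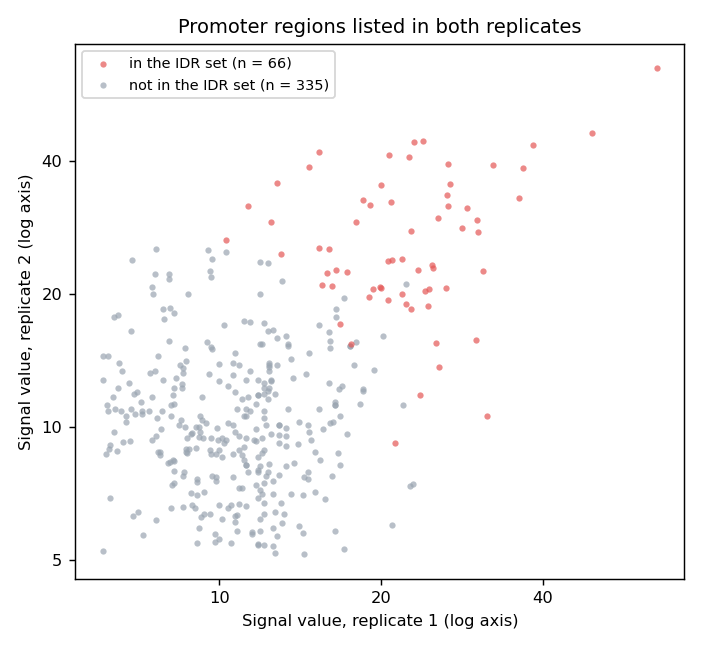
Signal value in replicate 1 (x, log axis) against replicate 2 (y, log axis) for the 401 autosomal promoter regions listed in both replicates; each point is a region, red for the 66 in the IDR set and grey for the 335 others. The IDR regions lie toward the upper right, with rpl-3 at 65.2 and 65, and the grey points show little order. Some IDR regions are low in 1 replicate, as tub-2/Y71G12A.5 at 10.3 and 26.5.

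The authors' q-values were weak throughout. The highest −log10 q-value of the joint list was 1.08 (q = 0.0827), and the median of the promoter regions was 0.141. At the highest value 79 of the 710 promoter regions tied, and 200 of all 3817 joint regions. Every one of the 710 regions was 376 bp wide, so width carries no information, and an offset describes the centre of a region and not a binding site.

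The promoter regions were concentrated upstream of the annotated 5′ end. The midpoint lay upstream in 579 regions (81.5%), on the end itself in 1 and downstream in 130 (18.3%), with a median offset of -164 bp (quartiles -305 and -34; negative is upstream). The windows reach farther upstream than downstream, so the counts were also set against the length of window sequence at each offset. Regions were densest from 200 to 100 bp upstream, at 96.8 per Mb of window sequence. The density was 54.9 per Mb at 500 to 400 bp upstream, 47.5 per Mb in the 100 bp after the end and 33.1 per Mb from 100 to 200 bp downstream. Density therefore fell off on both sides of the peak, and was lowest inside the gene.

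The strongest regions were gathered more tightly. IDR regions had a median offset of -175 bp (quartiles -275 and -122), against -161 bp for the others, and 2 of the 69 (2.9%) lay downstream, against 128 of 641 (20%). The IDR share was 14.9% (22 of 148, 9.56 to 21.6%) at 200 to 100 bp upstream and 13.8% (16 of 116) at 300 to 200 bp upstream. It was 5.26% (4 of 76) at the far upstream edge, 3.9% (3 of 77) in the 100 bp from the end on, and 0 of 54 from 100 to 200 bp downstream, which allows a share of up to 5.56%. The share was thus highest where the regions were densest. Median signals followed the same course in a narrow range, with 22.4 at 200 to 100 bp upstream, 19.7 at the upstream edge and 19.3 at the downstream edge. At the limits of the window nothing changed abruptly, with a median signal of 20.5 over the 20 regions within 25 bp inside the upstream limit and 19.5 over the 15 within 25 bp outside it. At the downstream limit these were 19.2 over 12 regions inside and 19.9 over 19 outside.

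**Figure D2:**
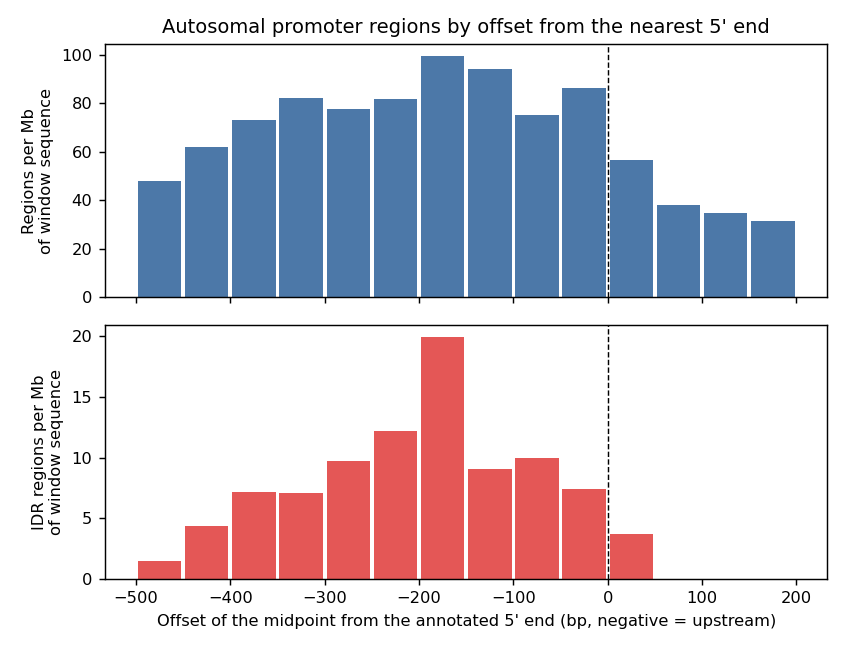
Autosomal promoter regions (upper panel) and the IDR regions among them (lower panel) per Mb of window sequence, in 50-bp bins of the offset of the midpoint from the annotated 5′ end (bp, negative is upstream). Both peak between 200 and 150 bp upstream, at 99.5 and 19.9 per Mb, and no IDR region lies more than 50 bp downstream.

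IDR regions were rarer over exons than outside genes. The midpoint lay outside any protein-coding gene in 512 regions, of which 59 (11.5%) were IDR regions, and in an intron in 65, of which 7 (10.8%) were. It lay in a noncoding part of an exon in 72, of which 2 (2.78%, 0.338 to 9.68%) were IDR regions, and in a coding exon in 61, of which 1 (1.64%, 0.0415 to 8.8%) was. All 7 IDR regions in introns lay in the body of another gene, upstream of the 5′ end whose window held them. A midpoint inside the window's own gene lies downstream of its 5′ end. The comparison by exon thus partly repeats that by offset, and the 2 were not separated. Of the 288 regions whose nearest gene is annotated to start within 10 bp of its coding start, as trans-spliced genes often are, 30 (10.4%) were IDR regions. Of the 422 regions whose nearest gene has a longer leader, 39 (9.24%) were, and the intervals overlap.

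Divergent promoters held 134 of the 710 regions, single promoters 571, and 5 regions lay in windows of genes on the same strand only. A region was called divergent when its midpoint fell in the windows of genes on both strands. Divergent windows made up 6.8% of the window sequence and 18.9% of the regions. The density was 186 regions per Mb in divergent and 58 per Mb in single windows, and the density of IDR regions was 24.9 against 4.88 per Mb. Sequence in divergent windows lies nearer to a 5′ end, so densities were also compared at 1 offset. Within the same 200 to 100 bp upstream of the nearest end the density was still 319.5 per Mb in divergent and 75.7 per Mb in single windows.

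Divergent regions also had somewhat higher signals. The median was 23.4 (quartiles 19.5 and 30.6) in divergent and 20.6 (18.4 and 24.4) in single promoters, and the divergent region had the higher signal in 62.3% of all divergent-single pairs. With the signals of each replicate alone the share of pairs was 60.5% in replicate 1 (104 divergent and 417 single regions) and 58.5% in replicate 2 (117 and 451). The direction was the same in both, and the distributions overlap over most of their range. The IDR share was 13.4% (18 of 134, 8.16 to 20.4%) in divergent and 8.41% (48 of 571, 6.26 to 11%) in single promoters, with overlapping intervals. Restricted to regions 300 to 1 bp upstream, it was 15.5% (16 of 103, 9.15 to 24%) against 11.8% (34 of 288, 8.32 to 16.1%). Both replicates listed 87 of the 134 divergent regions (64.9%, 56.2 to 73%) and 311 of the 571 single ones (54.5%, 50.3 to 58.6%).

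**Figure D3:**
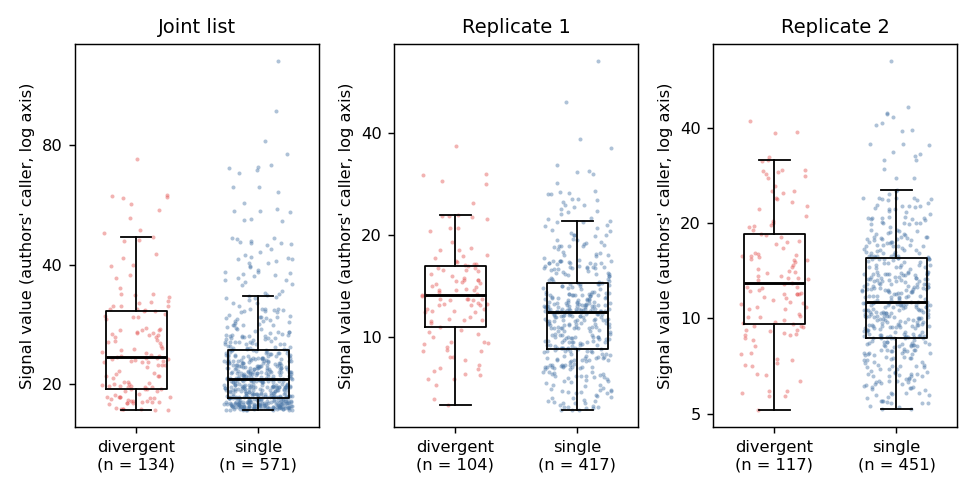
Signal value (log axis) of regions in divergent (red) and single (blue) promoters, in the joint list and in each replicate list; points are regions, boxes give the median and quartiles and whiskers reach the last point within 1.5 box lengths. Divergent medians are higher in all 3 panels, 23.4 against 20.6, 13.2 against 11.8 and 12.9 against 11.3, with wide overlap.

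Nearly all divergent regions, 133 of 134, lay at genes that point away from each other, with a median of 406 bp between the 5′ ends (quartiles 281 and 533). In 111 the midpoint lay between both ends. With each gap split into 3 equal parts, 54 (48.6%) fell in the middle part, 26 in the part next to the minus-strand gene and 31 in the part next to the plus-strand gene. In gaps over 500 bp the rule itself keeps midpoints near the centre. In the 72 gaps up to 500 bp, where any point lies in both windows, the middle part held 29 (40.3%), the part next to the minus-strand gene 18 and that next to the plus-strand gene 25. Among the 17 IDR regions in gaps of any length the parts held 7, 5 and 5, in the same order. IDR regions made up 18.3% (13 of 71) at gaps of 250 to 500 bp, 10.3% (4 of 39) at 500 to 1000 bp and 4.35% (1 of 23) under 250 bp, with intervals that overlap.

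Several of the strongest 25 regions were at genes of translation. The strongest region lay 275 bp upstream of rpl-3, a gene for a large-subunit ribosomal protein, with a joint signal of 130.3, 65.2 in replicate 1 (rank 19) and 65 in replicate 2 (rank 3). The region of rpl-35, another large-subunit gene, lay 412 bp upstream (chrIII:7854534-7854909) with a joint signal of 82.2, 38.4 in replicate 1 (rank 36) and 43.5 in replicate 2 (rank 22). Both ribosomal protein regions were thus near the top of each replicate list. The divergent region of rpl-15 and K11H12.8 had a joint signal of 59.7, with 15.3 in replicate 1 (rank 710) and 42 in replicate 2 (rank 24). The region at eef-2, the elongation factor that moves the ribosome along the message, and clsp-1 had 55, with 14.7 in replicate 1 (rank 893) and 38.9 in replicate 2 (rank 32). These 2 were strong in replicate 2 and far weaker in replicate 1. The small-subunit genes rps-1 (joint signal 54.6) and rps-12, which shares its region with the spindle and kinetochore gene ska-3 (59.4), were also among the strongest 25. The shared region lay nearer to ska-3 (89 bp upstream, against 204 bp for rps-12).

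Other regions among the strongest 25 were at genes of protein folding and turnover. The gene Y55F3AR.2 and cct-8, which encodes a subunit of the cytosolic chaperonin that folds actin and tubulin, shared the strongest divergent region (chrIV:1094170-1094545), with a joint signal of 73.8, 36.7 in replicate 1 (rank 39) and 38.7 in replicate 2 (rank 33). Another chaperonin subunit gene, cct-1, shared a region with mig-5, a Dishevelled protein of Wnt signalling, with a joint signal of 52.5. Both of these regions lay nearer to the other gene of the pair. The first lay 183 bp upstream of Y55F3AR.2 and 438 bp upstream of cct-8, the second 124 bp upstream of mig-5 and 296 bp upstream of cct-1. Neither can thus be assigned to the chaperonin gene alone. F44E5.4 and F44E5.5, a divergent pair of HSP70 family genes, had 58.9, with 28.9 in replicate 1 (rank 60) and 31.4 in replicate 2 (rank 55). These genes are close copies, so the value there is uncertain. The region of cdc-48.1, an ATPase that extracts ubiquitin-tagged proteins, had 69.4, with 26.5 in replicate 1 (rank 69) and 33.5 in replicate 2 (rank 44). All 4 of these regions were listed in both replicates.

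The other strong regions were at genes of varied roles. The region of ints-4, a subunit of the Integrator complex that processes small nuclear RNAs, was the second by signal (97.8, with 49.5 and 46.5 in replicates 1 and 2) and its midpoint lay 44 bp downstream of the 5′ end, in a noncoding part of an exon. It was thus one of the 2 IDR regions downstream of an end. Joint signals were 76.1 at tasp-1, 62.9 at the alpha-tubulin gene tba-2, 62.7 at the histone gene his-37, 60.9 at the respiratory chain gene cox-5A and 59.8 at the pair of drr-2 and the histone methyltransferase gene set-16. They were 55.4 at mrpl-28 and 54.7 at ddp-1, both of which encode mitochondrial proteins, and 54.2 at plin-1, which encodes a lipid droplet protein. C47E8.4 (71.3), eelo-2 (70.6), Y22D7AL.10 (70.2), tos-1 (68.2), Y87G2A.25 (57.1) and the pair scpr-1/gpap-1 (56.9) completed the strongest 25. Histone genes have many near-identical copies, so the value at his-37 is uncertain.

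In all, 845 of the 16301 autosomal protein-coding genes (5.18%) had a region in their window, and 90 (0.552%) an IDR region. Gene lists were drawn from gene symbols, and their counts are set beside these shares. Among the 71 autosomal genes of cytosolic ribosomal proteins, 26 (36.6%, 25.5 to 48.9%) had a region, 17 of them a divergent one, and 8 an IDR region. Each divergent region also counts for a gene on the other strand. The divergent share among all genes with a region was not counted. Translation initiation and elongation factors had a region at 12 of 35 genes (34.3%) and an IDR region at 3, namely eef-2, eif-3.C (46.8) and eif-3.B (40.3). The genes of the translation machinery were thus listed in the joint list several times as often as all genes. Some of their regions ranked far higher in replicate 2, as at rpl-12 (rank 2196 in replicate 1 and 68 in replicate 2). Among the divergent regions of these genes, fewer ranked far higher in replicate 1, as at rps-19 (rank 112 in replicate 1 and 12867 in replicate 2). Some were listed in only 1 replicate, as at rps-15 (replicate 2, rank 71) and rpl-2 (replicate 1, rank 1275). The lists were not counted in each replicate alone. Aminoacyl-tRNA synthetases, which charge tRNAs, had a region at 2 of 29 (6.9%), near the share of all genes, and mitochondrial ribosomal proteins at 8 of 68 (11.8%).

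Folding and degradation genes stood above the share of all genes as well. The cytosolic chaperonin had a region at 3 of 8 genes (37.5%, 8.52 to 75.5%), all of them divergent, and DnaJ and heat shock proteins at 10 of 45 (22.2%, 11.2 to 37.1%), with dnj-19 (46.1) and dnj-9 (43) in the IDR set. The region of dnj-19 is shared with nhr-47 and lies nearer to it (59 bp upstream, against 337 bp for dnj-19). Proteasome subunits had a region at 6 of 32 (18.8%, 7.21 to 36.4%) and none in the IDR set, with rpn-11 highest at 30.4. Lists of few genes gave wide intervals, so their order cannot be read closely.

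Among lists of chromatin and RNA genes, the intervals of the DREAM complex, Integrator and splicing factors lay above 5.18%, and those of RNA polymerase and Mediator (4.19 to 26.8%) and of histones (2.39 to 16.1%) included it. The DREAM complex, which represses cell cycle and germline genes, had a region at 4 of 9 genes (44.4%, 13.7 to 78.8%), the highest share of the lists, with IDR regions at lin-54 (45.9), lin-9 (45.4) and lin-53 (39.7). The region of lin-54 is shared with the ribosomal protein gene rpl-12, lies nearer to rpl-12 (39 bp upstream, against 354 bp for lin-54) and is counted in both lists. That of lin-53 is shared with nra-2. The Integrator complex had a region at 3 of 11 genes, and splicing factors at 8 of 47 (17%, 7.65 to 30.8%). Of the latter, snr-4, an Sm protein gene, was in the IDR set at 41.7. Its region was listed in replicate 2 (rank 127) and not in replicate 1. RNA polymerase and Mediator subunits had 5 of 40 (12.5%) and histones 5 of 69 (7.25%), where 3 genes had an IDR region. The respiratory chain and ATP synthase had 5 of 33 (15.2%, 5.11 to 31.9%), with atp-1 (48.9), a subunit of ATP synthase, in the IDR set beside cox-5A. The vacuolar ATPase had 3 of 16 (18.8%, 4.05 to 45.6%), and tubulins and actins 2 of 14.

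Genes of sensing, defence and the cuticle were seldom listed. Chemoreceptor genes had a region at 22 of 1194 (1.84%, 1.16 to 2.78%), C-type lectins at 3 of 228 (1.32%), F-box and MATH-BATH genes at 5 of 371 (1.35%), collagens at 2 of 133 (1.5%) and neuropeptides and insulins at 1 of 99 (1.01%). All 5 shares lay below the 5.18% of all genes, but the intervals of collagens (0.183 to 5.33%) and of neuropeptides and insulins (0.0256 to 5.5%) include it. The strongest chemoreceptor region, at sri-5 (48.2), was shared with rsr-1 on the other strand, so it cannot be assigned to sri-5 alone. Nuclear hormone receptors themselves had a region at 14 of 241 (5.81%, 3.21 to 9.55%), and homeobox genes at 3 of 55 (5.45%), which is near the share of all genes. The receptor genes nhr-47 (46.1, shared with dnj-19) and nhr-256 (45.2) had IDR regions. UDP-glucuronosyltransferases had 1 of 59 and cytochrome P450 genes 3 of 66 (4.55%).

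**Figure D4:**
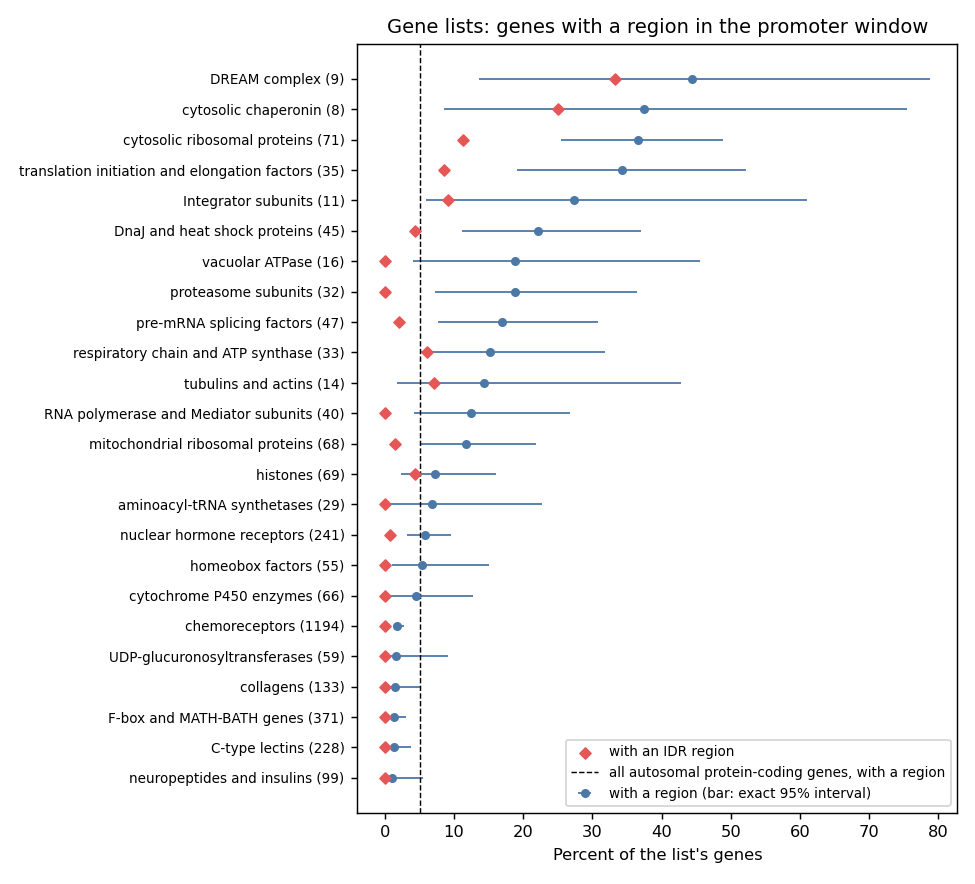
Percent of the autosomal genes of each list (number in brackets) with a region in the promoter window (blue point, bar for the exact 95% interval) and with an IDR region (red diamond); the dashed line is the 5.18% of all autosomal protein-coding genes. Lists of translation and folding lie to the right of the line, at 36.6% for cytosolic ribosomal proteins, and chemoreceptors and C-type lectins lie to its left, at 1.84% and 1.32%.

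GC content moved with the signal. The median over the sequence within 100 bp of the midpoint was 36.3% in the promoter regions, 32.8% in the autosomal regions outside windows and 33.3% in windows of the same length centred 164 bp upstream of the 5′ end, the median offset of the promoter regions, in all autosomal promoters. It was 43.3% in the IDR promoter regions against 35.8% in the others, and 38.3% in divergent against 35.8% in single promoters. In promoter regions with a GC content up to 32.8%, 6 of 251 (2.39%) were IDR regions, against 16 of 223 (7.17%) up to 39.3% and 47 of 236 (19.9%) above it. The rise was also present outside the windows, at 0.375%, 0.861% and 8.01%, so it is not particular to promoters, and within each class of GC the promoter share was the higher.

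The IDR shares of the classes of promoter were also compared at like GC content, and their intervals overlapped in each class of GC. With a GC content above 39.3% the IDR share was 25% (14 of 56, 14.4 to 38.4%) in divergent and 17% (30 of 176, 11.8 to 23.4%) in single promoters. Between 32.8 and 39.3% it was 7.69% (4 of 52) and 7.06% (12 of 170), and up to 32.8% it was 0 of 26, which allows a share of up to 11.5%, against 2.67% (6 of 225). The part of GC content in the signals was not tested. Among the gene lists the median GC content of the promoters lay between 30.3 and 36.8%, apart from histones at 48.8%. It was 31.8% for cytosolic ribosomal proteins and 35.3% for the DREAM complex. These medians describe the promoters of a list and not the regions found there, so the part of GC content in the list shares was not tested.

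**Figure D5:**
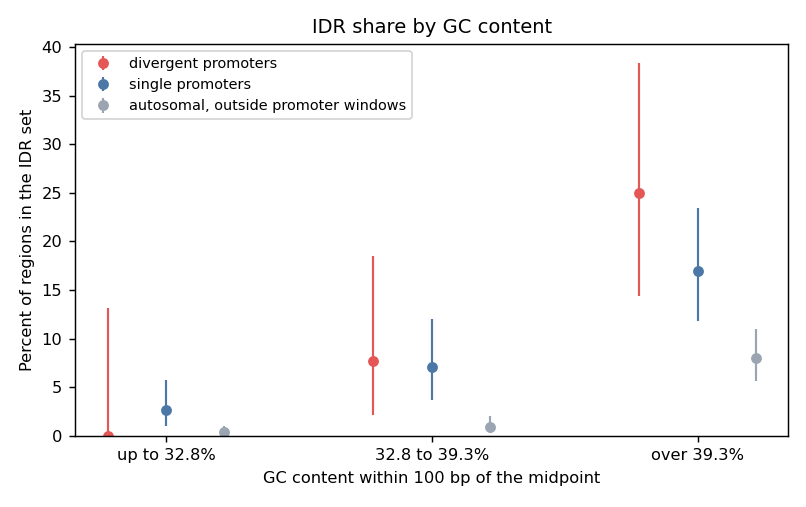
Percent of regions in the IDR set (y) in 3 classes of GC content within 100 bp of the midpoint (x), for divergent (red) and single (blue) promoters and autosomal regions outside promoter windows (grey); bars are exact 95% intervals. The share is highest above 39.3% GC in all 3 groups, at 25%, 17% and 8.01%.

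Of 10 short motifs searched on both strands within 100 bp of the midpoint, CCCGCC and GAGAGAGA had the highest ratio to all promoters. In percentage points TTTCAG had the largest excess over all promoters, and TGATAA the largest deficit. CCCGCC was present in 6.62% of the promoter regions, against 4.31% outside windows and 4.5% of all autosomal promoters, and GAGAGAGA in 3.8%, against 3.4% and 2.47%. TTTCAG was present in 34.1%, against 35.7% outside windows and 29.8% of all promoters. AGGTCA is a core element bound by many nuclear receptors in vertebrates. It was present in 3.38% of the promoter regions, against 4.89% outside windows and 5.95% of all autosomal promoters. The GATA-type TGATAA was present in 15.1%, against 17.6% outside and 22% of all promoters. The E-box CACGTG was present in 4.79%, against 3.45% and 3.74%, and TATAAA in 21.4%, against 23.9% and 25.2%. Among the 69 IDR promoter regions, AGGTCA was in 5 (7.25%, 2.39 to 16.1%), an interval that includes both 3.38% and 5.95%. There, CCCGCC and GAGAGAGA were in 3 each (4.35%, 0.906 to 12.2%), TTTCAG in 18 (26.1%) and TGATAA in 6 (8.7%). A match is a description of these letters and not of a bound site.

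The patterns marked in capitals were picked from the strongest windows, so their frequency there is a description alone. CTGCGTC was present in 58 promoter regions (8.17%), against 3.6% of the autosomal regions outside windows and 3.3% of all autosomal promoters. Below the strongest 25 it was in 6 of 44 IDR promoter regions (13.6%), and in 7.49% of the 641 that were not IDR regions. Outside the windows it was in 11 of the 44 IDR regions (25%), so it was not confined to promoters. TACACTT was in 6 of the strongest 25 (24%), in 0 of the 44 other IDR promoter regions, which allows up to 6.82%, and in 3.15% of all promoters. ACACGCT was in 8 of the strongest 25 (32%), in 1 of the 44 (2.27%) and in 1.14% of all promoters. The 2 patterns were frequent only in the set they were picked from. Both stood together in 5 promoter regions, all among the strongest 25, in 1 region outside windows and in 3 of the 16301 promoter windows, which were centred 164 bp upstream of each 5′ end. Their spacing and orientation were not tested.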

How the data were processed

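Chromatin immunoprecipitation followed by sequencing was done on 2 biological replicates of whole L1 larvae, per the labels. Deposited by the authors were a region list per replicate, a joint list derived from the alignments of both replicates and 1 control file, and an IDR set, per the deposited file descriptions. The signal value in the deposited lists is a score of the authors' peak caller, and the q-value is given by the authors as −log10. The aligner, the caller, their versions and the IDR threshold are not given in the sources used here, and the depth is unknown. The lists for ce10 were not used.

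From these lists, midpoints were assigned to promoter windows of the Ensembl release 115 annotation (500 bp upstream, 200 bp downstream), after tests on simulated data, with Python 3.11.15, pandas 2.3.3, numpy 2.4.6, scipy 1.17.1 and matplotlib 3.10.9. Genomic sequence was that of RefSeq for WBcel235. A region was matched to a replicate list within 100 bp of its midpoint. Where a region lay in several windows its offset is that to the nearest 5′ end. Shares have exact (Clopper-Pearson) 95% intervals, which cover counting error only. Regions of 1 group share libraries and are not replicates, so no test over regions was made.

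The genes named are those of the 25 regions of highest signal, the 8 strongest single and the 8 strongest divergent regions, up to 3 genes of each list by signal and the genes with the most regions. R13A5.15 and the 3 sequence patterns in capitals were chosen after values and sequences were seen. The regions, the 24 gene lists and the 10 motifs were chosen with earlier results of these data known, and the symbol patterns of the chemoreceptor and homeobox lists were corrected after their values were seen. A gene list and a sequence window are not reported here. Alternatives were other window limits, the 5′ ends of all transcripts, the piRNA clusters kept, other match distances, a stricter IDR set, divergence by gene layout and each replicate alone.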

Additional observations from a re-analysis of the deposited data

How the results depend on the processing

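Of 53 alternative values for 9 results, 36 stayed within tolerance and 17 moved beyond it. A change of direction could be scored only for the pair share and the median offset, and 0 of their values changed direction. Every window tried reached farther upstream than downstream, so the median offset could hardly change sign. The tolerance was 1.5 times for counts, the exact 95% interval for shares, and the SD between the 2 replicates for the pair share (1.39 percentage points) and the median offset (1.41 bp). With 250 bp upstream there were 469 regions at 518 genes, 9.59% of them divergent, the divergent region was the higher in 66.3% of pairs, the median offset was -72 bp and the IDR share of divergent promoters 17.8%. With 1000 bp upstream there were 971 regions at 1179 genes, the pair share was 64.3%, the IDR share of single promoters 5.93% and the median offset -269 bp, and with the 5′ ends of all transcripts it was -168 bp. The median offset is set in part by the window itself. By gene layout 25.4% were divergent. With the 82 IDR regions of highest signal alone the IDR share was 3.94% of all promoter regions, 5.97% of divergent and 3.5% of single ones, since fewer regions count. Matching within 50 bp left 39.4% listed in both replicates, and within 200 bp 70.8%. With either replicate left out, the pair share was 58.5 to 60.5%. No IDR set was available for 1 replicate, so the regions of highest signal in the replicate kept stood in for it. As many were taken as there were IDR regions, 113 among autosomal regions and 69 among promoter regions. Of all promoter regions, 7.89 to 8.87% were in the first set. Of divergent regions 11.2 to 17.2%, and of single regions 7.88 to 9.11%, were in the second. No paired analysis was possible because there was 1 group. Depth, the tissue bound and the reads of the control file cannot be read from the lists.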

Other observations

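Few of the promoter regions lay near a noncoding RNA gene. Within 200 bp of the midpoint there was a small nuclear RNA gene at 2 of the 710 promoter regions (0.282%), both of them IDR regions, against 17 of 2086 (0.815%) outside the windows. These were sls-2.8, a spliced leader RNA gene, at the pair Y75B8A.23/tim-1 (signal 47), and T11F9.15 at snr-4 (41.7). A small nucleolar RNA gene was near 9 promoter regions (1.27%) against 36 (1.73%) outside. A tRNA gene was near 4 (0.563%) against 13 (0.623%), and a miRNA gene near 3 (0.423%) against 4 (0.192%).

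There were 7 genes with 2 regions in their window and none with more, namely AC3.12, C29F5.1, attf-6, cal-7, copa-1, gst-43 and taf-4, and the highest signal among them was 29.1. Of the 5 regions in windows of genes on the same strand only, 3 were IDR regions, at egl-30/C53H9.4 (41.1), K11D12.14/pqn-51 (38.3) and tub-2/Y71G12A.5 (37.1), named here after their values were seen. A gene whose same-strand neighbour ends within 500 bp upstream, as in an operon, had a region in 4.81% (155 of 3224), against 5.28% (690 of 13077) of the other genes, and the IDR shares were 0.496% and 0.566%.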
